A study of Homo sapiens with 4 samples.

Results

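The HIST1 cluster on the short arm of chromosome 6 is the largest group of replication-dependent histone genes in the human genome, and its contacts were read here from genome-wide Hi-C maps of IMR90 cells, a line of normal lung fibroblasts. Its members were the bins of about 200 kb that overlap 25.7 to 28.2 Mb of chromosome 6 in hg19, which gave 13 of the 842 bins of the chromosome and of 14444 bins in all. The neighbouring block of the major histocompatibility complex (MHC), from 28.5 to 33.5 Mb, took 26 bins. All cells carried pLNCX2 ER:HRAS G12V, an oncogenic RAS fused to an oestrogen receptor domain and active only when 4-hydroxytamoxifen (4OHT) is given. Growing cells without 4OHT (Grow) were compared with cells given 100 nM 4OHT for 6 days, which enter oncogene-induced senescence (OIS, called RIS in the labels), and each state was also mapped with pMSCV miR shHMGA1, a hairpin against the chromatin protein HMGA1 (Grow-shA1 and OIS-shA1). Cells were kept in 5% oxygen. The labels give 2 samples for each of the hairpin conditions, and their reads were pooled into 1 map. The Grow and OIS maps were those of an earlier data set, with no sample here, so the hairpin and the data set cannot be told apart.

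Replication-dependent histone genes encode the core histones H2A, H2B, H3 and H4 and the linker histone H1, which package newly made DNA. They are transcribed in S phase, their messages end in a stem loop in place of a poly(A) tail, and cells that leave the cell cycle switch them off. In the nucleus the gene groups of the cluster gather at the histone locus body, where NPAT, a target of cyclin E-CDK2, and factors of histone message processing collect. In senescent fibroblasts, chromatin can condense into heterochromatin foci, to which HMGA proteins contribute.

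Protein-coding histone genes of the annotation started in 6 of the 13 bins, 52 in number: 6 for H1, 12 for H2A, 13 for H2B, 10 for H3 and 11 for H4. Runs of neighbouring histone bins formed 4 blocks. Block 1 was bin 1 (chr6:25595808-25799489), with H2AC1 and H2BC1, histones of the testis, beside SLC17A4 and SCGN, a calcium-binding protein. Block 2 was bins 3 and 4 (chr6:26001072-26199681 and chr6:26199682-26400179), with 19 and 10 histone genes of all 5 types. Bin 3 also held HFE, the iron regulator lost in haemochromatosis, and bin 4 held BTN3A2 and BTN2A2, butyrophilins that act on T cells. Block 3 was bin 8 (chr6:27000396-27200004), with the H2A and H2B genes H2BC11, H2AC11, H2BC12 and H2AC12 and the H4 gene H4C9. Block 4 was bins 11 and 12 (chr6:27599539-27801291 and chr6:27801292-28000536), with 7 and 9 histone genes, among them H1-5, and 2 olfactory receptor genes, OR2B2 and OR2B6. The other 7 bins lay before, between and after the blocks. Bin 2 held SLC17A1, SLC17A2 and SLC17A3, phosphate and urate transporters, and TRIM38, a ubiquitin ligase. Bin 5 held 4 butyrophilin genes with HMGN4, a nucleosome-binding protein, and ABT1, and bin 6 held ZNF322. No protein-coding gene started in bin 7. Bin 9 held PRSS16, a protease of the thymus, with POM121L2 and ZNF391, bin 10 held ZNF184, and bin 13 held ZNF165, ZSCAN16, ZKSCAN8, ZSCAN9 and OR2B8P.

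The readout rests on HindIII, the enzyme that cut the chromatin, and bin edges followed its sites: at 840 of the 841 inner edges of chromosome 6 the site began at the same offset. The 40 bases around 4 edges of the cluster are shown from the GRCh37 reference, forward strand, with the HindIII site in capitals, because these sites decide which histone genes share a bin.
start of bin 1, chr6:25595788-25595827: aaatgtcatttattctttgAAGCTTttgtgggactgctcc
bins 2 and 3, chr6:26001052-26001091: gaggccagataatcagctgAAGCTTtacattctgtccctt
bins 5 and 6, chr6:26601323-26601362: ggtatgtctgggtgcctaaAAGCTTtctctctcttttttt
end of bin 13, chr6:28200871-28200910: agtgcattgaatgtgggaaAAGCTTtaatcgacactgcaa

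The blocks also share promoter letters that the bins did not use. RefSeq promoters (GRCh38.p14, 250 bases before to 50 after the start) were found for 47 of the 52 histone genes. The octamer ATTTGCAT, on either strand, stood in 9 of 11 H2A and 10 of 13 H2B promoters, in 1 of 8 H3 promoters and in 0 of 6 H1 and 0 of 9 H4 promoters, against 1.77% of the 35116 promoters of the table. CCAAT, on either strand, stood in all H1, H2A, H2B and H3 promoters matched and in 2 of 9 H4 promoters, against 34.6% of all. TATAAA, on either strand, stood in 8 of 11 H2A, 10 of 13 H2B, 6 of 8 H3, 6 of 9 H4 and 3 of 6 H1 promoters, against 11.5% of all. For each block, 1 H2B promoter is shown, the first along the block that holds the octamer, from 130 bases before to 20 after the start, read along the gene, with the octamer, CCAAT (also as ATTGG) and TATAAA in capitals. The octamer is the site that OCT1 binds with its histone cofactor in S phase.
H2BC1, block 1, chr6:25726647-25726796 (+): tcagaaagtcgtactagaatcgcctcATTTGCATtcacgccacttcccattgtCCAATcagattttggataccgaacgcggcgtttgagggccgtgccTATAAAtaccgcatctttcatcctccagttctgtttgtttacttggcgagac
H2BC3, block 2, chr6:26043694-26043843 (-): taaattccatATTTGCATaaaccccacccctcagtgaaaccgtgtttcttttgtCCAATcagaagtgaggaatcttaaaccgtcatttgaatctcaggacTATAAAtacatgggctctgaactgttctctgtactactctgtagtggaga
H2BC11, block 3, chr6:27132776-27132925 (-): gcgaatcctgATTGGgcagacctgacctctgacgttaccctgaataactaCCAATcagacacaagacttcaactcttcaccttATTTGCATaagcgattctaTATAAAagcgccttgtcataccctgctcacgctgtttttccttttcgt
H2BC14, block 4, chr6:27814892-27815041 (+): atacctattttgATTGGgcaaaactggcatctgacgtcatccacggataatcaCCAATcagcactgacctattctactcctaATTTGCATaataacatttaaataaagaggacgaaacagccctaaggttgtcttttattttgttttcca

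The octamer began 104 bases before the start in H2BC1 of the testis pair and 120 in H2BC3 of block 2, and 47 in H2BC11 and 48 in H2BC14 of blocks 3 and 4. The maps hold no measure of transcription, so the promoter letters describe the genes and carry no value of a condition.

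Each map lists a distance-corrected contact score for pairs of bins of the same chromosome, in which higher values mean more contact for the distance. The level usual for a distance was not always 0 and differed between maps. Chromosome 6 pairs at the distances of the cluster pairs averaged 0.0893 in Grow, 0.0338 in Grow-shA1, -0.0609 in OIS and -0.0763 in OIS-shA1. The base and scale of the score are not given in the sources used here, so differences are given in score units and not as fold changes. The Grow map listed 89.1% of the possible chromosome 6 pairs, Grow-shA1 84.2%, OIS 79.3% and OIS-shA1 77.3%. The study reports fewer reads for OIS-shA1 than for Grow-shA1, and read depth of the Grow and OIS maps is unknown here. The part of read depth in the differences was not tested. All 78 pairs among the cluster bins had a value in all 4 maps. The cluster bins held 44 to 77 HindIII sites (median 62, against 61 over chromosome 6) at 37.5% to 43.8% GC. With 1 map per condition no test between conditions exists, so every mean below is over pairs of bins, its SD is the spread over those pairs, and neither is an error between replicates. Pairs share bins and 1 map, and the pattern over pairs cannot stand in for replicates.

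The cluster was split between compartments, with most of its histone genes in A and 3 of its 4 blocks in B. The compartment score was the first component of the correlation matrix of chromosome 6, with its sign set so that it correlated positively with gene starts. Positive bins are called A, by convention the more active compartment, and negative bins B. The correlation with gene starts was weak, at 0.199 in Grow and 0.212 in OIS, and that with GC was 0.345 and 0.399. The calls thus do not sort single bins into gene-rich and gene-poor. Bin 3, the bin with most histone genes, scored 0.837 in Grow, 0.825 in Grow-shA1, 0.599 in OIS and 0.602 in OIS-shA1. Bin 4 scored 0.902 in Grow, 0.897 in Grow-shA1, 0.582 in OIS and 0.637 in OIS-shA1, and bin 5, the butyrophilin bin, 0.91 in Grow, 0.936 in Grow-shA1, 0.573 in OIS and 0.626 in OIS-shA1. These were the 3 A bins of the cluster in every map. The other 10 bins were in B in every map, the histone blocks 1, 3 and 4 among them. Bin 8 scored -0.572 in Grow, -0.695 in Grow-shA1, -0.161 in OIS and -0.343 in OIS-shA1. Bins 11 and 12 scored -0.761 and -0.667 in Grow and -0.333 and -0.494 in OIS, and the testis bin 1 scored -1.02 and -0.715.

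With the component of the whole chromosome, all 13 bins lay nearer 0 in OIS than in Grow. The 3 A bins were lower, the 10 B bins higher, and no bin crossed 0. With the same component all 13 were farther from 0 in OIS-shA1 than in OIS. With a component for each arm these directions did not hold. Bins 2, 8 and 13 alone were then nearer 0 in OIS than in Grow. Bins 3 and 4 alone were then farther from 0 in OIS-shA1 than in OIS. Per arm, bin 3 scored 0.923 in Grow, 0.981 in OIS and 0.991 in OIS-shA1. Bin 9 scored -1.36 in Grow, -1.43 in OIS and -1.3 in OIS-shA1. Over chromosome 6 the number of A bins was 376 in Grow, 370 in Grow-shA1, 442 in OIS and 413 in OIS-shA1 of 823 bins with enough listed pairs, and the component held 33.6%, 29.2%, 27.9% and 26.4% of the variance. Bins 3 to 5 listed 70.5% to 73.6% of their chromosome 6 pairs in OIS and the other bins 76.2% to 90.7%, and the part of this difference in the scores was not tested. The zinc finger bin 13 came closest to the border, at -0.381 in Grow and -0.0656 in OIS.

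**Figure D1:**
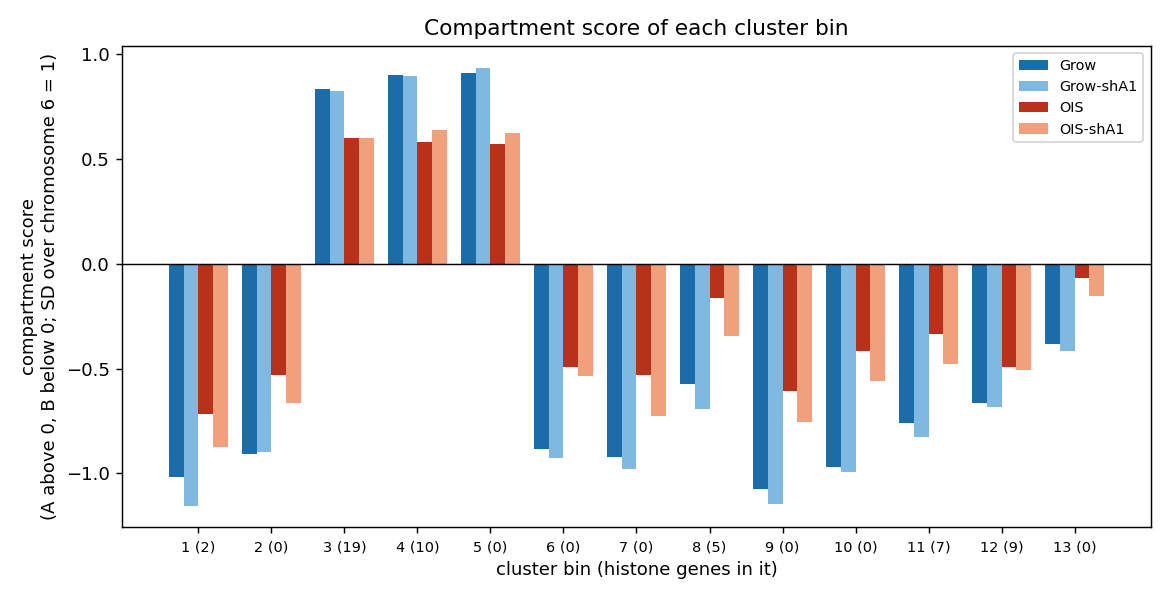
Compartment score (scaled to an SD of 1 over chromosome 6) of each of the 13 cluster bins in the 4 maps, with the number of histone genes in parentheses. 1 bar is 1 map. Bins 3 to 5 stand above 0 and the other 10 below it in all maps. The OIS bars are shorter than the Grow bars in all 13 bins, which was not so with a component for each arm.

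Pairs within the cluster had higher contact scores in OIS than in Grow, and the difference was smaller with the hairpin. The mean over the 78 pairs was 0.0334 ± 1.27 in Grow, -0.0249 ± 1.29 in Grow-shA1, 0.246 ± 1.32 in OIS and 0.111 ± 1.28 in OIS-shA1. OIS minus Grow was 0.212 ± 0.359 score units, with 60 of 78 pairs higher in OIS. Chromosome 6 pairs at the same bin distances went the other way, by -0.15. OIS-shA1 minus OIS was -0.135 ± 0.233, against -0.0154 at the same distances, and OIS-shA1 minus Grow-shA1 was 0.135 ± 0.374, against -0.11. Grow-shA1 minus Grow was -0.0584 ± 0.133, close to the -0.0555 of the chromosome. The OIS difference with the hairpin was thus -0.0769 ± 0.215 score units away from that without it.

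A pair was called higher or lower when its score differed by at least 0.5 score units. In OIS minus Grow 18 of the 78 pairs were called higher and 3 lower, where 6.87% and 19.2% of the 9616 chromosome 6 pairs at 1 to 12 bins were. In OIS-shA1 minus OIS 1 was called higher and 4 lower, against a background of 7.29% and 5.62%. In Grow-shA1 minus Grow 0 pairs were called in either direction, against 0.884% and 2.48%. In OIS-shA1 minus Grow-shA1 12 were called higher and 6 lower, against 7.06% and 15%.

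Where pairs of A bins anywhere on chromosome 6 were taken at these distances, OIS minus Grow was 0.0574, pairs of B bins gave -0.226 and mixed pairs -0.235, all below the 0.212 of the cluster. The OIS difference was uneven along the cluster. It was highest for bin 13, 0.426 ± 0.271 score units over its 12 cluster partners, followed by the histone bin 3, 0.41 ± 0.273, and bin 6, 0.384 ± 0.253. Bin 1, the testis histone bin, went the other way, at -0.315 ± 0.378, and bin 2 differed by -0.021. The largest OIS minus Grow of the 78 pairs, 0.721, was that of bins 3 and 7, whose score was -2.06 in Grow, -2.36 in Grow-shA1, -1.34 in OIS and -2.29 in OIS-shA1. Its OIS map stood above the other 3, and OIS-shA1 minus OIS was -0.952, the lowest of the 78. The neighbouring bins of block 2, bins 3 and 4, scored 0.155 in Grow, 0.252 in Grow-shA1, 0.825 in OIS and 0.803 in OIS-shA1, higher in both OIS maps than in both Grow maps. For these neighbours the Grow value was at percentile 16 and the OIS value at percentile 59.2 of adjacent bins on chromosome 6.

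**Figure D2:**
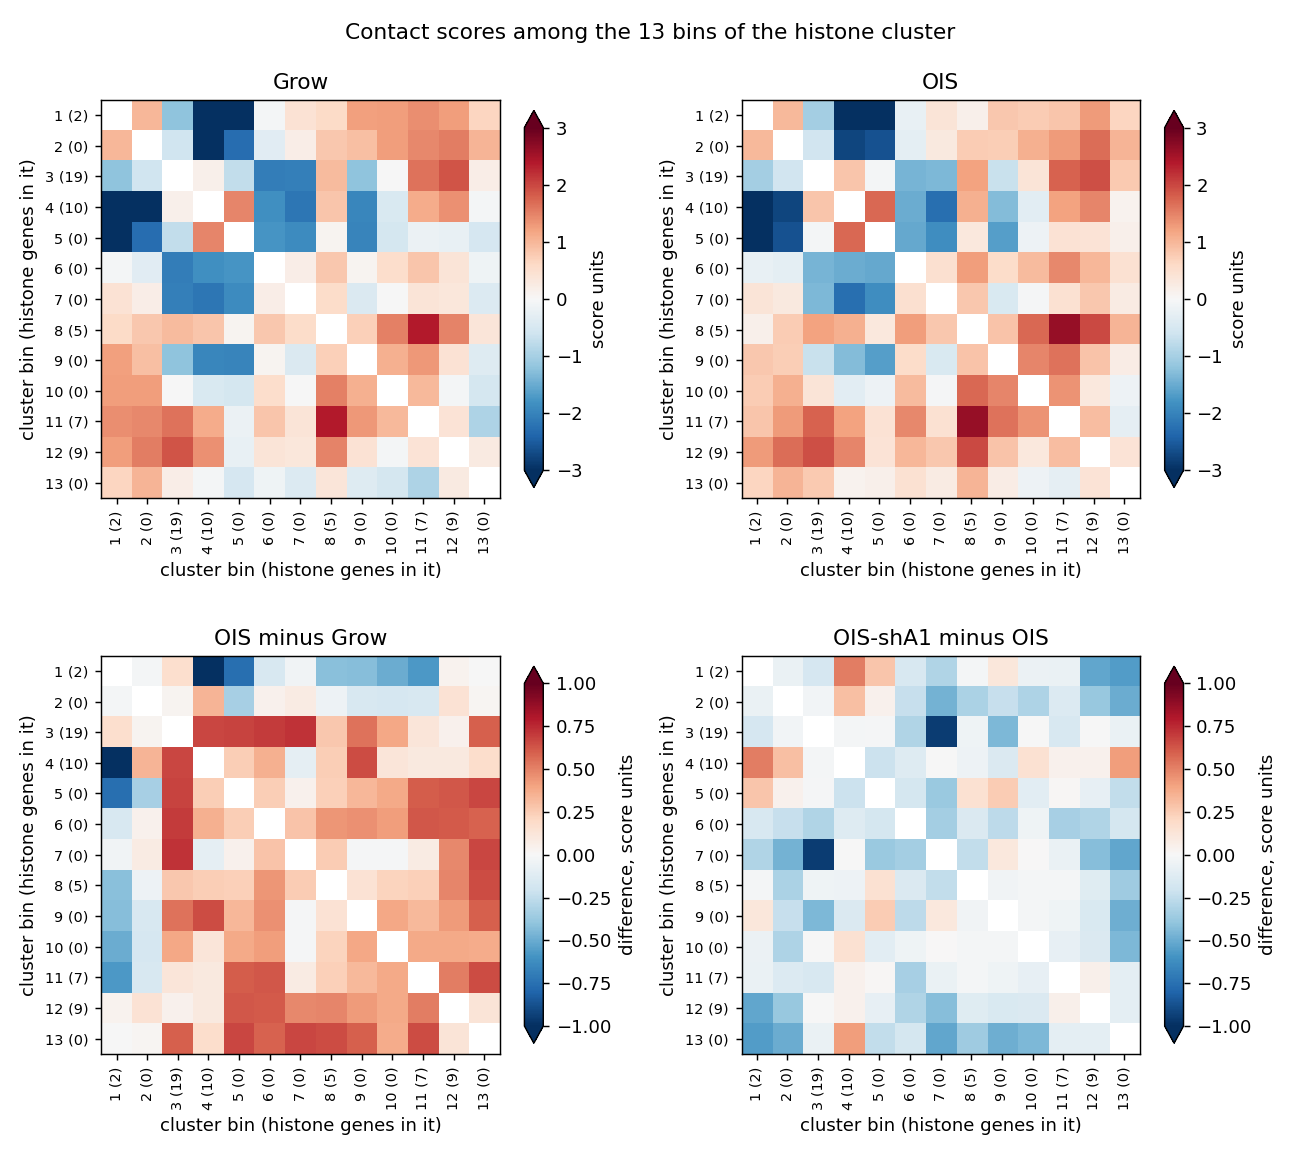
Contact scores of all pairs of the 13 cluster bins in Grow and OIS (colour, score units) and, below, the difference of OIS from Grow and of OIS-shA1 from OIS, with the histone genes per bin in parentheses on both axes and colours cut at the ends of each scale. In both maps red squares join bin 3 with bins 8, 11 and 12, with blue or pale squares for bins 9 and 10 between them, and 60 of 78 pairs are above 0 in OIS minus Grow.

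Histone bins of blocks 2, 3 and 4 scored above the mean of other cluster pairs at the same distances, while those of the testis block scored both high and low. Over all 13 pairs of histone bins in different blocks the mean score was 0.755 ± 1.61 in Grow, 0.766 ± 1.57 in Grow-shA1, 0.733 ± 1.93 in OIS and 0.69 ± 1.8 in OIS-shA1. Other cluster pairs at the same bin distances averaged 0.0083 in Grow and 0.207 in OIS. The spread over the 13 pairs was wide, and the pairs of block 1 held both its lowest values and some of its high ones. Without it, a choice made after the values were seen, the 8 pairs among blocks 2, 3 and 4 averaged 1.45 ± 0.516 in Grow, 1.44 ± 0.494 in Grow-shA1, 1.65 ± 0.52 in OIS and 1.62 ± 0.51 in OIS-shA1. All 8 were above 0 in all 4 maps, while other cluster pairs at their distances averaged -0.0706 in Grow, -0.128 in Grow-shA1, 0.0879 in OIS and -0.0504 in OIS-shA1. Those other pairs mix compartments, and high scores were not limited to pairs of histone bins. In Grow bin 2, which holds no histone gene, scored 1.54 with bin 12 and 1.45 with bin 11, and bin 10, also without one, scored 1.5 with bin 8. These pairs, all of B bins, lay above bins 4 and 12 and bins 4 and 11 of blocks 2 and 4.

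The highest score of the cluster joined bin 8 (the H2BC11 to H2AC12 group) and bin 11 (the H2BC13 to H4C12 group), 3 bins apart: 2.38 in Grow, 2.27 in Grow-shA1, 2.62 in OIS and 2.61 in OIS-shA1. Its percentile among chromosome 6 pairs 3 bins apart was 99 in Grow and 99.6 in OIS. Bins 8 and 12 scored 1.48 in Grow, 1.4 in Grow-shA1, 1.97 in OIS and 1.85 in OIS-shA1, higher in both OIS maps. Block 2 reached across the gap to block 4: bins 3 and 12 scored 1.88 in Grow, 1.92 in Grow-shA1, 1.93 in OIS and 1.92 in OIS-shA1, with the 4 maps nearly level. Bins 3 and 11 scored 1.64 in Grow, 1.55 in Grow-shA1, 1.76 in OIS and 1.6 in OIS-shA1. Bins 4 and 12 scored 1.36 in Grow, 1.5 in Grow-shA1, 1.46 in OIS and 1.5 in OIS-shA1, and bins 4 and 11 1.11 in Grow, 1.12 in Grow-shA1, 1.21 in OIS and 1.25 in OIS-shA1. The contacts of block 2 with block 3 were lower, 0.946 in Grow, 0.914 in Grow-shA1, 1.22 in OIS and 1.17 in OIS-shA1 for bins 3 and 8 and 0.824 in Grow, 0.818 in Grow-shA1, 1.07 in OIS and 1.02 in OIS-shA1 for bins 4 and 8.

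Block 2 lay in A and blocks 3 and 4 in B, and such mixed pairs usually scored low: chromosome 6 pairs of an A and a B bin at cluster distances averaged -0.807 in Grow, -0.879 in Grow-shA1, -1.04 in OIS and -1.1 in OIS-shA1. The 6 pairs of block 2 with blocks 3 and 4 averaged 1.29 ± 0.411 in Grow, 1.3 ± 0.424 in Grow-shA1, 1.44 ± 0.34 in OIS and 1.41 ± 0.327 in OIS-shA1. Among mixed pairs at the same bin distance in Grow, bins 3 and 12 stood at percentile 99.4, bins 3 and 11 at 99.4, bins 4 and 12 at 99.1, bins 4 and 11 at 95.3, bins 3 and 8 at 93.6 and bins 4 and 8 at 89.5. Bin 5, next to block 2 and in A like it but with no histone gene, scored -0.212 in Grow, 0.0117 in Grow-shA1, 0.412 in OIS and 0.327 in OIS-shA1 with bin 12 and -0.176 in Grow, -0.143 in Grow-shA1, 0.432 in OIS and 0.441 in OIS-shA1 with bin 11, below bins 3 and 4 in all 4 maps. Bin 9, between blocks 3 and 4, scored -1.21 with bin 3 and -1.96 with bin 4 in Grow, where bin 8 on its near side scored 0.946 and 0.824. Bins 10 and 13, B bins also without a histone gene, lay higher with block 2 than bin 9. In Grow bins 3 and 13 stood at percentile 89.3 of mixed pairs at their distance and bins 4 and 13 at 83.3. Bins 3 and 10 stood at 81 and bins 4 and 10 at 64.5. High mixed contact of block 2 was thus not limited to histone bins.

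The differences between conditions were small beside these levels. For blocks 2 to 4, OIS minus Grow was 0.201 ± 0.143, higher in 8 of 8 pairs, OIS-shA1 minus Grow-shA1 was 0.179, higher in 7 of 8, and OIS-shA1 minus OIS was -0.0388. No pair among them reached 0.5 score units in any comparison. With block 1 in, OIS minus Grow over the 13 pairs was -0.0214 ± 0.429 and OIS-shA1 minus Grow-shA1 was -0.0762 ± 0.407. Cluster pairs with bins that hold no histone gene were also higher in OIS: 42 pairs of a histone bin with another cluster bin differed by 0.256 ± 0.347, and 21 pairs of bins without histone genes by 0.233 ± 0.291.

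**Figure D3:**
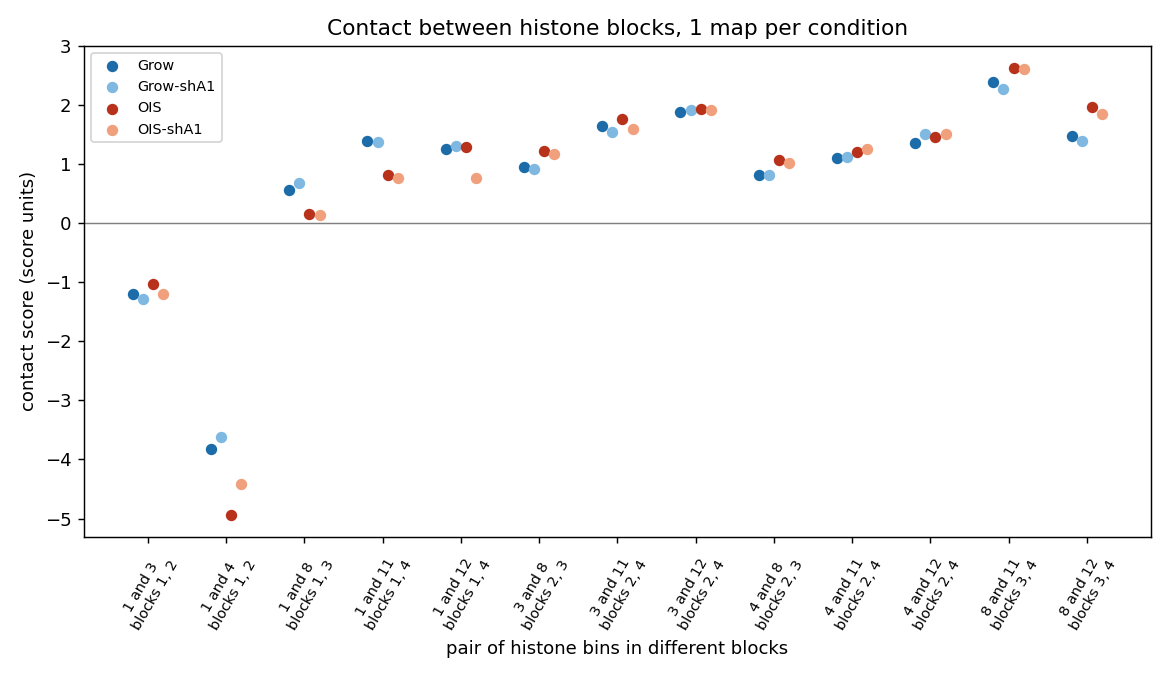
Contact score (score units) of the 13 pairs of histone bins that lie in different blocks, 1 point per map and condition. The 8 pairs of blocks 2, 3 and 4 lie above 0 in all 4 maps, and bins 1 and 4 lie lowest, at -3.83 in Grow and -4.93 in OIS.

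The testis histone pair H2AC1 and H2BC1 sat on the far side of a contact gap. Bin 1 with bin 4, 3 bins away, scored -3.83 in Grow, -3.62 in Grow-shA1, -4.93 in OIS and -4.42 in OIS-shA1, the lowest value of the cluster in every map, and lower in the OIS maps than in the Grow maps. That was percentile 0.124 of 806 chromosome 6 pairs at this distance in Grow and 0.124 in OIS. Bin 1 with the butyrophilin bin 5 scored -3.04 in Grow, -3.05 in Grow-shA1, -3.79 in OIS and -3.51 in OIS-shA1, and the SLC17A bin 2 with bin 4 scored -3.1 in Grow, -3.03 in Grow-shA1, -2.75 in OIS and -2.45 in OIS-shA1. Bin 1 with bin 3, the nearer histone bin, scored -1.2 in Grow, -1.28 in Grow-shA1, -1.03 in OIS and -1.2 in OIS-shA1. Toward the B blocks the sign turned: bin 1 with bin 11 scored 1.4 in Grow, 1.37 in Grow-shA1, 0.823 in OIS and 0.759 in OIS-shA1, bin 1 with bin 12 1.25 in Grow, 1.31 in Grow-shA1, 1.29 in OIS and 0.771 in OIS-shA1, and bin 1 with bin 8 0.566 in Grow, 0.679 in Grow-shA1, 0.151 in OIS and 0.134 in OIS-shA1. Bins 1 and 11 were lower in both OIS maps than in both Grow maps, and bins 1 and 12 were lower in OIS-shA1 alone. Low scores also lay behind block 2, where bin 3 scored -2.08 with bin 6 in Grow and bin 4 scored -2.17 with bin 7. In OIS these were -1.38 and -2.26. They were less extreme among pairs of an A and a B bin at their distance, at percentiles 11.1 and 9.43 in Grow and 24.6 and 11.9 in OIS. Bins 1 and 4 stood at percentile 0.41 of such pairs in both maps.

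Contact across an edge, the mean score of the 5 bins before with the 5 bins after it, was lowest within the cluster between bins 2 and 3, at the start of block 2, at -1.26 in Grow, -1.27 in Grow-shA1, -1.37 in OIS and -1.44 in OIS-shA1. It stood at percentile 6.49 in Grow and 8.29 in OIS among the edges of chromosome 6. At every edge from the start of bin 5 to the olfactory receptor genes of the MHC block OIS lay above Grow.

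Among the edges of the cluster and the MHC block, OIS lay furthest above Grow at the end of the cluster. At the edge of bins 11 and 12, within histone block 4, the values were 0.163 in Grow, 0.0451 in Grow-shA1, 0.773 in OIS and 0.521 in OIS-shA1, and OIS minus Grow, 0.61, was at percentile 99.9 of chromosome 6 edges. At the start of bin 13 they were 0.302 in Grow, 0.175 in Grow-shA1, 0.91 in OIS and 0.692 in OIS-shA1. At the end of the cluster they were 0.338 in Grow, 0.267 in Grow-shA1, 0.929 in OIS and 0.688 in OIS-shA1, with OIS minus Grow at 0.591. Both Grow maps lay below both OIS maps at these edges, and OIS-shA1 lay between. OIS-shA1 minus OIS was -0.252, -0.218 and -0.242 at the same edges, at percentiles 8.77, 15.1 and 10.5.

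**Figure D4:**
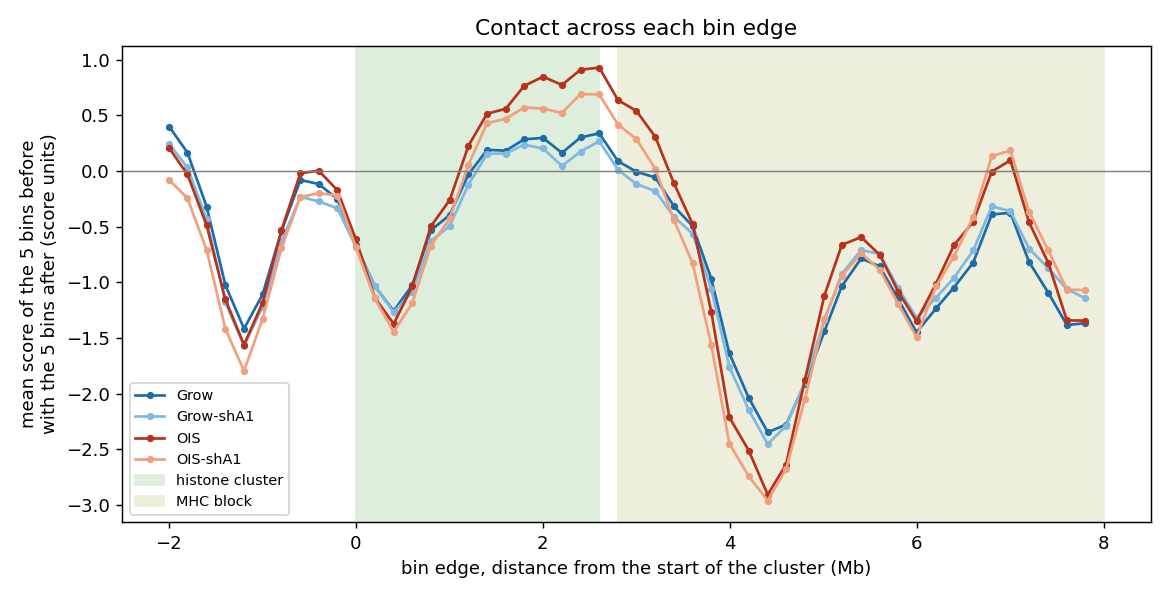
Mean score (score units) of the 5 bins before with the 5 bins after each bin edge, against the distance of the edge from the start of the cluster in Mb, 1 line per map, with the cluster and the MHC block shaded. The OIS line leaves the Grow line in the later part of the cluster, at 0.929 against 0.338 at its end, with OIS-shA1 at 0.688.

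With the MHC block the cluster had less contact than usual for the distance. The block includes antigen-presenting genes and, on the side near the cluster, olfactory receptor, zinc finger and TRIM genes. OIS minus Grow of its bins ran from 0.63 near the cluster to -0.711 farther off. Of the 26 MHC bins 18 had enough listed pairs, and all 4 bins with class III genes such as TNF, C2 and NOTCH4 were left out, as were 4 others. The bins left out held a median of 33 HindIII sites, against 48.5 in those kept. Over 232 pairs the mean was -0.5 ± 0.927 in Grow, -0.627 ± 0.991 in Grow-shA1, -0.454 ± 1.29 in OIS and -0.731 ± 1.31 in OIS-shA1. Chromosome 6 pairs at the same distances averaged -0.157 in Grow, -0.195 in Grow-shA1, -0.311 in OIS and -0.289 in OIS-shA1. Over the 232 pairs OIS minus Grow was 0.0459 ± 0.61, against -0.154 at the same distances. OIS-shA1 minus OIS was -0.277 ± 0.571, against 0.0216. Grow-shA1 minus Grow was -0.127 ± 0.35 and OIS-shA1 minus Grow-shA1 -0.104 ± 0.657. The sign of OIS minus Grow over the whole block was not stable: with pairs over 2 Mb apart alone it was -0.0663, and with every MHC bin that had a value -0.0415. With the hairpin the OIS difference was thus -0.15 ± 0.624 away from that without it.

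Of the 232 pairs 60 (25.9%) were called higher and 40 (17.2%) lower in OIS minus Grow, where 11.6% and 23.8% of 27776 chromosome 6 pairs of that range of distances were. In OIS-shA1 minus OIS 17 (7.33%) were higher and 65 (28%) lower, against 13.4% and 11.8%. In Grow-shA1 minus Grow the counts were 6 and 27, against 4.32% and 6.7%, and in OIS-shA1 minus Grow-shA1 39 and 61, against 14.7% and 22.2%.

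The 14 olfactory receptor genes of the MHC block, odorant sensors silent in fibroblasts, lay in 3 bins. Their contact with the cluster was -0.0231 in Grow, -0.116 in Grow-shA1, 0.39 in OIS and 0.142 in OIS-shA1, so OIS minus Grow was 0.413 ± 0.51 over 39 pairs. With bins 8 to 13, the later cluster bins, a split made after the values were seen, the score was 0.376 ± 0.525 in Grow, 0.265 ± 0.487 in Grow-shA1, 1.01 ± 0.623 in OIS and 0.649 ± 0.517 in OIS-shA1. All 18 of these pairs were higher in OIS than in Grow, and all 18 were lower in OIS-shA1 than in OIS, by 0.634 ± 0.227 and -0.361 ± 0.183. They share 6 cluster bins and 3 MHC bins, so they are not 18 separate results. Of all 232 cluster pairs with the MHC block, 58.6% were higher in OIS than in Grow and 28.4% higher in OIS-shA1 than in OIS. Chromosome 6 pairs at the distances of those 232 differed by -0.154 and 0.0216. Just before the olfactory receptor bins, the MHC bin of TRIM27 and ZNF311 had the highest score with the cluster of all MHC bins, 0.659 in Grow, 0.601 in Grow-shA1, 1.14 in OIS and 0.902 in OIS-shA1. OIS minus Grow was not particular to the olfactory genes. It was 0.248, 0.385 and 0.607 in their 3 bins and 0.491, 0.63 and 0.481 in the 3 bins before them, of which the middle one holds no start of a protein-coding gene. These 6 bins were all in B in Grow and are the MHC bins nearest the cluster, so genes, distance and compartment cannot be told apart.

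The antigen-presenting genes lay farther from the cluster. The bin of HLA-B and HLA-C, class I genes, scored -1.23 in Grow, -1.44 in Grow-shA1, -1.79 in OIS and -2.32 in OIS-shA1, below 0 in all 4 maps and lower in both OIS maps than in both Grow maps. The 13 class II genes, which present antigen on immune cells, lay in 4 bins, 3 of them used, with a mean of -0.654 in Grow, -0.753 in Grow-shA1, -0.763 in OIS and -0.908 in OIS-shA1.

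By histone block, contact with the MHC block was -0.111 in Grow and -0.344 in OIS for block 1, -0.697 in Grow and -0.615 in OIS for block 2, -0.355 in Grow and -0.238 in OIS for block 3 and -0.52 in Grow and -0.594 in OIS for block 4. None of the blocks averaged above 0, and block 2, with 29 histone genes, was lowest in both. In OIS-shA1 minus OIS the 4 blocks differed by -0.234, -0.149, -0.182 and -0.161, all lower.

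Over distances above 2 Mb the 13 bins together had more contact with B bins of chromosome 6 than with A bins. The compartment calls use these same contacts in Grow, so their level there is a description. With distal A bins the mean was -0.132 in Grow, -0.179 in Grow-shA1, -0.192 in OIS and -0.214 in OIS-shA1 over 2721 pairs, and with distal B bins 0.327 in Grow, 0.305 in Grow-shA1, 0.213 in OIS and 0.205 in OIS-shA1 over 3771 pairs. Chromosome 6 pairs at the distances of the A pairs averaged 0.152 in Grow and 0.103 in OIS. Those at the distances of the B pairs averaged 0.185 in Grow and 0.151 in OIS. The A minus B difference of the cluster was -0.459 in Grow and -0.405 in OIS. OIS minus Grow of this difference was thus above 0 over the chromosome, but it was -0.0513 on the short arm alone, where it was -0.0148 in OIS-shA1 minus Grow-shA1, and 0.155 with compartments called from each map. Contact with distal B bins was lower in OIS than in Grow, with a difference of -0.114 ± 0.54, against -0.034 for chromosome 6 pairs at the same distances, and contact with distal A bins differed by -0.0595 ± 0.55, against -0.0497. OIS-shA1 minus OIS was -0.0217 ± 0.57 with A bins and -0.00767 ± 0.575 with B bins. In all, 2721 of 4703 A pairs and 3771 of 5535 B pairs were listed in all 4 maps.

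The histone blocks had opposite long-range partners. Block 2 scored 0.356 with distal A bins and -0.603 with distal B bins in Grow, and 0.351 and -0.456 in OIS. Block 1 scored -0.405 and 0.634 in Grow and -0.478 and 0.486 in OIS. Block 3 scored -0.21 and 0.32 in Grow and -0.223 and 0.148 in OIS, and block 4 scored -0.255 and 0.35, then -0.41 and 0.257. OIS minus Grow with distal B bins was 0.146 for block 2 and -0.148, -0.171 and -0.093 for blocks 1, 3 and 4. So the block in A was higher with B bins in OIS, and the blocks in B were lower with them, where distal pairs over the whole chromosome differed by -0.114 between A and B bins and by -0.000841 between B bins. With the hairpin, OIS-shA1 minus Grow-shA1 gave 0.209 for block 2 and -0.174, -0.118 and -0.105 for the others, the same signs. Of the B pairs of block 2, 269 of 848 were listed in all maps, against 382 of 422 for block 1.

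The OIS difference turned with distance and arm. With B bins 5 to 10 Mb away OIS minus Grow was 0.147, at 10 to 20 Mb 0.188, at 20 to 50 Mb -0.238 and beyond 50 Mb -0.135. With A bins it was -0.113, 0.111, -0.144 and -0.0962 over the same distances. On the short arm, where the cluster lies, OIS minus Grow was -0.0209 with A bins and 0.0304 with B bins, and on the long arm -0.115 and -0.195. OIS-shA1 minus OIS with long-arm B bins was 0.0418, and with short-arm B bins -0.0951. The short arm held differences of both signs. Runs of 5 bins with 0 or 1 A bin in Grow differed by -0.343 at the start of the arm (chr6:1-1000476). They differed by -0.0821, -0.159, -0.312 and -0.131 in the 4 runs from chr6:47998096. Nearer the cluster, such runs differed by 0.119, 0.0129, 0.237, 0.149 and 0.0896 before it and by 0.235, 0.163, 0.226 and 0.0345 after it.

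Along the chromosome, contact was read for 101 runs of 5 bins, of which 74 scored above 0 in Grow and 49 in OIS. No such count was made for other parts of the chromosome. All chromosome 6 pairs at the distances of the cluster's distal pairs also averaged above 0, and lower in OIS. They averaged 0.152 in Grow and 0.103 in OIS at the distances of the A pairs, and 0.185 and 0.151 at those of the B pairs. The highest score in Grow was with chr6:7999371-8992818, a B run near the end of the short arm with BLOC1S5 and TXNDC5 readthrough genes, at 1.33 in Grow, 1.09 in Grow-shA1, 1.34 in OIS and 1.08 in OIS-shA1. Second was the run that ends in the centromere gap, chr6:57994266-61880228, in which no protein-coding gene started, at 1.21 in Grow, 1.08 in Grow-shA1, 1.16 in OIS and 1.09 in OIS-shA1. The third, chr6:49999897-51001475, held TFAP2D, TFAP2B and DEFB112, and scored 1.02 in Grow, 1.05 in Grow-shA1, 0.71 in OIS and 1.05 in OIS-shA1. These 3 runs had no A bin in Grow. The largest OIS minus Grow was with chr6:44998742-46002378, which holds RUNX2, the regulator of bone formation, and SUPT3H, at 0.0259 in Grow, 0.00211 in Grow-shA1, 0.343 in OIS and 0.327 in OIS-shA1. The next were chr6:44001787-44998741, with CDC5L, a splicing factor, and SPATS1, at -0.123 in Grow, -0.117 in Grow-shA1, 0.154 in OIS and 0.0865 in OIS-shA1, and chr6:37998760-39001146, with BTBD9, DNAH8 and GLO1, at -0.253 in Grow, -0.365 in Grow-shA1, 0.00618 in OIS and -0.115 in OIS-shA1. All 3 had mostly A bins, and both OIS maps stood above both Grow maps. The lowest OIS minus Grow was that of 3 neighbouring B runs of the long arm: chr6:66798934-67799481 at 0.106 in Grow, 0.304 in Grow-shA1, -0.461 in OIS and -0.324 in OIS-shA1, chr6:67799482-68798406 at 0.163 in Grow, 0.273 in Grow-shA1, -0.389 in OIS and -0.174 in OIS-shA1, and chr6:68798407-69800751, which holds ADGRB3, at 0.22 in Grow, 0.234 in Grow-shA1, -0.331 in OIS and -0.135 in OIS-shA1. In these 3 runs both OIS maps were below 0 and both Grow maps above it.

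**Figure D5:**
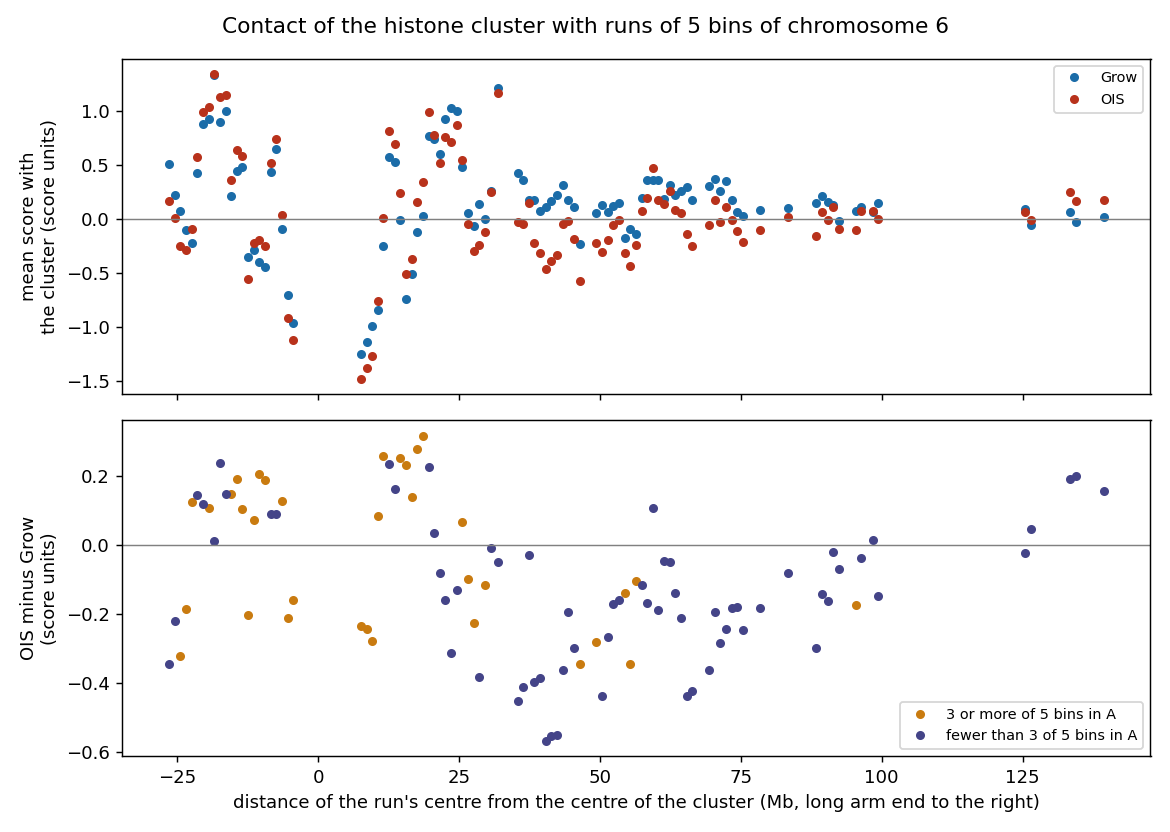
Mean score of the 13 cluster bins with each of 101 runs of 5 bins (upper panel, score units, Grow and OIS) and OIS minus Grow (lower panel), against the distance of the run from the cluster in Mb with the long arm end to the right. The differences run from -0.567 to 0.317, and the lowest are runs with fewer than 3 A bins on the long arm.

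Replication and cell cycle genes that are also on chromosome 6 differed widely in their contact with the cluster. The 10 usable bins of 11 replication and cell cycle genes averaged 0.167 in Grow, 0.106 in Grow-shA1, 0.281 in OIS and 0.26 in OIS-shA1, and OIS minus Grow was 0.114 ± 0.475 over 116 pairs. MCM3, a subunit of the replicative helicase, lay highest: its bin scored 0.845 ± 0.439 in Grow, 0.742 ± 0.524 in Grow-shA1, 0.912 ± 0.672 in OIS and 1.17 ± 0.412 in OIS-shA1 over 13 cluster bins. NFYA, a subunit of the factor that binds CCAAT, scored 0.569 ± 0.497 in Grow, 0.54 ± 0.411 in Grow-shA1, 0.885 ± 0.23 in OIS and 0.824 ± 0.301 in OIS-shA1, and DEK, a chromatin protein, 0.465 ± 0.589 in Grow, 0.253 ± 0.826 in Grow-shA1, 0.481 ± 0.84 in OIS and 0.389 ± 1.01 in OIS-shA1. GMNN, the geminin gene that limits replication licensing and lies just before the cluster, scored -0.191 in Grow, -0.235 in Grow-shA1, -0.172 in OIS and -0.355 in OIS-shA1, and E2F3, an activator of S phase genes, -0.0358 in Grow, 0.0801 in Grow-shA1, 0.186 in OIS and 0.0108 in OIS-shA1. CCND3, a D-type cyclin, scored -0.724 in Grow, -0.747 in Grow-shA1, -0.297 in OIS and -0.49 in OIS-shA1 over 11 bins, the largest OIS minus Grow of the list at 0.427 ± 0.348. PRIM2, a primase subunit, differed by 0.196 ± 0.448, and CASP8AP2, a protein of the histone locus body needed for histone transcription, by 0.139 ± 0.668 over 9 bins. CCNC, a cyclin of the Mediator complex, and HDAC2, a histone deacetylase, both on the long arm, differed by -0.18 and -0.221. The bin of CDKN1A, the p21 arrest gene, had too few listed pairs to enter the mean.

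The bin of HMGA1, the target of the hairpin, scored below 0 with the cluster in all 4 maps, -1.24 ± 0.652 in Grow, -1.49 ± 0.782 in Grow-shA1, -1.52 ± 0.88 in OIS and -1.55 ± 0.798 in OIS-shA1 over 10 cluster bins. The low score was not particular to this bin. The run of 5 bins that holds it, chr6:34004145-34998952, scored -1.25 in Grow, and the next run, chr6:34998953-36001414, scored -1.14. The maps show contact and not its expression, so they do not check the hairpin. Senescence and stress genes averaged 0.0516 in Grow, 0.0116 in Grow-shA1, -0.0884 in OIS and 0.00102 in OIS-shA1. Among them SOD2, a mitochondrial antioxidant enzyme, had an OIS minus Grow of 0.246 over 9 bins and FOXO3, a transcription factor of the stress response, of -0.789 over 4. The 4 matrix and fibroblast genes were all lower in OIS than in Grow, with an OIS minus Grow of -0.415 for FOXC1, -0.261 for COL12A1, -0.6 for LAMA4 and -0.915 for CCN2, although COL12A1, LAMA4 and CCN2 rest on 2 or 3 cluster bins each.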

How the data were processed

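Hi-C was made by in-nucleus ligation after HindIII digestion. Per the submitters' processing notes and the study's methods, the authors aligned reads with HiC-Pro to hg19, pooled the replicates of a condition, and balanced and distance-corrected the 200 kb matrices; the deposited values are scores for pairs of bins on the same chromosome, of unstated base. The study gives read numbers for the hairpin maps alone, lower in OIS-shA1 than in Grow-shA1. Read depth of the Grow and OIS maps is unknown here, and the share of pairs listed stands in for it. Here genes were placed by start site in GENCODE v44 lifted to GRCh37, and a gene it does not place there was not counted. Bins with values for at least 50% of their chromosome 6 pairs in each map were kept. Means were taken over pairs listed in all 4 maps (Python 3.11.15, numpy 2.4.6, pandas 2.3.3). Compartments came from the first principal component, as in the study. Scripts were tested on simulated data. Every cluster bin is described with its genes; outside it, the listed genes and the 3 runs of bins highest in Grow, the 3 with the largest and the 3 with the smallest OIS minus Grow, with up to 3 longest genes each. The members, lists and comparisons were chosen with earlier results of these data known. Alternatives were other pair choices, scalings, centrings, bin filters, distances and compartment calls. Bin lists give coordinates only. Class I genes of the MHC are not reported here as a group.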

Additional observations from a re-analysis of the deposited data

How the results depend on the processing

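Of 248 values under other settings, leaving out scaling by the SD, which changes the unit, 214 moved by at most 0.05 score units or kept their count, 26 moved further and 8 turned in sign. In each listing below the comparisons are OIS minus Grow and then OIS-shA1 minus Grow-shA1, unless named, and the causes were not tested.

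Within the cluster OIS minus Grow stayed above 0 under every setting run. It was 0.316 and 0.198 after centring each map at each distance and 0.277 and 0.214 over bins wholly inside the interval, which drops bins 1 and 13. OIS-shA1 minus Grow-shA1 was 0.0788 over pairs at least 3 bins apart, and Grow-shA1 minus Grow turned to 0.0278 as a difference of medians.

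Between histone blocks both turned positive without the block of H2AC1 and H2BC1, an alternative added after the data were seen, and with whole bins alone, which leaves the same pairs, at 0.201 and 0.179. Scaling by the SD at each distance gave -0.106 and -0.15, centring gave 0.0429 for OIS minus Grow, limiting extreme scores gave 0.0518 for it and -0.0964 for OIS-shA1 minus OIS, and medians gave 0.063 for Grow-shA1 minus Grow and -0.141 for OIS-shA1 minus Grow-shA1.

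With the MHC block, scaling gave 0.139 and 0.0366 (a turn of sign for the latter) and -0.21 for OIS-shA1 minus OIS. Using every bin gave -0.0415 and -0.158, and pairs over 2 Mb apart -0.0663 and -0.213. OIS minus Grow with the MHC block thus changes sign with the near pairs and the bins kept.

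With distal A bins, OIS minus Grow turned to 0.0252 with compartments from each map, where OIS-shA1 minus Grow-shA1 was 0.0313, and was -0.00574 with unlisted pairs at 0. With distal B bins, OIS minus Grow was -0.0626 with each map's own pairs, scaling gave -0.225 and -0.198, and medians gave -0.161 for the latter. On the short arm alone the B contacts turned to 0.0304 and 0.0229, with -0.0951 for OIS-shA1 minus OIS. There Grow-shA1 minus Grow was -0.0876. A minus B contact was 0.169 and 0.164 after scaling and 0.155 and 0.148 with compartments from each map. On the short arm it turned to -0.0513 and -0.0148, with 0.063 for OIS-shA1 minus OIS, and Grow-shA1 minus Grow was 0.0265.

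With limits of 0.25 and 1 score units, 37 and 0 of the 78 cluster pairs were higher and 7 and 1 lower in OIS minus Grow. Per-arm components left the same number of cluster bins, 3, in A in all 4 maps. They did not keep the direction of the scores between maps. Per arm, bins 2, 8 and 13 alone were nearer 0 in OIS than in Grow.

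No paired analysis was possible because the 2 replicates of each hairpin condition are pooled into 1 map and the other maps have no replicate numbers, so leaving out a replicate could not be run either. Read depth of the Grow and OIS maps is unknown here, and fewer chromosome 6 pairs are listed in OIS than in Grow. Of the hairpin maps, OIS-shA1 had fewer reads than Grow-shA1 by the study's account.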
